A study of Homo sapiens with 57 samples.

Results

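The mRNA of HCT116 cells that expressed the TE7 form of an Spt5 fragment was compared with that of cells that expressed the WT form, in 6 of the 57 samples of the series. The libraries were chosen by their titles, 3 labelled CTR1_TE7 and 3 labelled CTR1_WT, and every transcript row of their quantification tables was compared, TE7 minus WT. HCT116 is a human colorectal carcinoma line. In both groups the source label gives cells with an Spt5-HA-dhfr fusion, to which pCW57AviSpt5(1-820) was added for WT and pCW57AviSpt5(1-820)CTR1_TE7 for TE7. Both were grown without trimethoprim (TMP), in McCoy's medium with serum, hygromycin, G418 and blasticidin, and both received doxycycline at 2 ug/ml for 24 hours to induce the Avi-tagged fragment of residues 1 to 820. The labels do not spell out TE7, do not say whether a line is 1 clone, and give no word on separate cultures for the replicates. The p-values then cover the spread among these 6 samples alone, possibly a technical one, and the CTR1 form and the line made for it cannot be told apart.

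Spt5, encoded by SUPT5H, binds RNA polymerase II together with Spt4 as the factor DSIF. It takes part in holding the polymerase near the promoter, and after phosphorylation by the kinase P-TEFb it travels with the elongating polymerase. CTR1 is a repeat region in its C-terminal part that P-TEFb phosphorylates. A dhfr degron fusion is stabilised by trimethoprim and degraded without it. Oligo-dT selected RNA, as sequenced here, gives the steady-state level of polyadenylated transcripts, which is set by synthesis and decay together.

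The tables name transcripts by identifier alone, and 0 identifiers matched the gene tables used here. SUPT5H, the epithelial markers of this line, markers of other cell types and the gene lists chosen for this comparison are therefore not analysed here, and no sequence is printed. Transcripts are described by their length, level and change, and by whether their reads were shared with other transcripts. In bulk RNA, fewer cells with a transcript and less RNA per cell cannot be told apart, and levels relative to library size do not give RNA per cell.

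The 6 libraries held 64364751 to 73794335 estimated reads, an estimate being the number of reads that the quantification assigned to a transcript. Between 87229 and 98926 of the 228715 listed transcripts had reads in a library, the lowest number in WT replicate 1. Replicates differed by more than counting noise in every pair, with a mean chi-square of 22.0 to 48.1 per transcript where identical libraries would give about 1. WT replicate 1 stood apart: on the second axis of a multidimensional scaling of the libraries it lay at 5.14 and the other libraries lay between -1.89 and -0.16. The count of calls and the length pattern are therefore also given without it.

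The TE7 libraries differed from the WT libraries by more than the libraries of either group differed among themselves. The percentage of reads that would have to move to other transcripts to turn one library's profile into another's was 5.20% to 6.22% between TE7 libraries and 6.73% to 10.2% between WT libraries. Between a TE7 and a WT library it was 11.6% to 15.7%, so the ranges did not overlap. The 3 pairs of WT replicate 1 with TE7 libraries gave 11.6%, 12.1% and 12.5%, the lowest between groups. These pairs share libraries and are given as a description. The TE7 libraries were also the more uniform group, with a biological coefficient of variation of 0.60 over the tested transcripts, against 0.70 in WT.

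**Figure D1:**
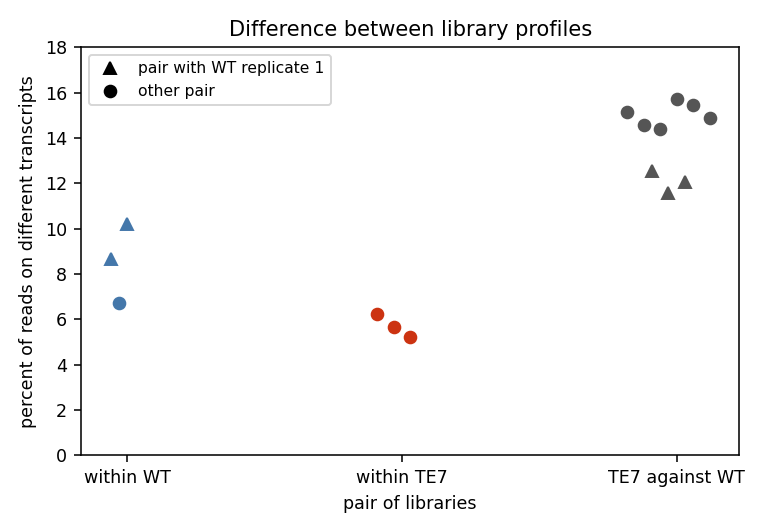
Percentage of reads on different transcripts (vertical axis) for each pair of libraries, grouped as pairs within WT, within TE7 and between TE7 and WT. Triangles are pairs that include WT replicate 1. All 9 pairs between groups lie above the pairs within groups, and the lowest of the 9, at 11.6%, 12.1% and 12.5%, include WT replicate 1.

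With all 6 libraries, about as many transcripts were called higher in TE7 as were called lower. The test covered 70340 transcripts and called 4899 of them (6.96%), 2389 for a higher (3.40%) and 2510 for a lower level (3.57%) in TE7, by the edgeR quasi-likelihood test with Benjamini-Hochberg adjusted p under 0.05. In all 4899 the TE7 libraries lay on one side of the WT libraries. Over all tested transcripts TE7 lay wholly above WT for 18.1% and wholly below for 17.4%. The median absolute log2 change of the transcripts called was 1.05.

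The count of calls depended on each of the 6 libraries. It was 8200 without WT replicate 1, where 4830 were higher and 3370 lower, 815 without WT replicate 2 (of which 502 rose and 313 fell) and 1169 without WT replicate 3 (648 and 521). It was 622 without TE7 replicate 1 (255 and 367), 325 without TE7 replicate 2 (123 and 202) and 470 without TE7 replicate 3 (179 and 291). The balance of directions thus went to higher without any 1 WT library and to lower without any 1 TE7 library. With library size alone in place of the scaling factors, 3122 were higher and 2423 lower. A fit that also took in the 3 libraries of a further CTR1 form, and so estimated the spread from 9 libraries, called 7378 transcripts, 4355 of them among the 4899.

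Few of the transcripts called were both well expressed in the 2 groups and changed by a large fold. Levels are in CPM, read counts relative to the scaled size of the library. With a mean of at least 5 CPM in each group, 2872 transcripts were called. Among these, a change of at least 2-fold was fitted for 280 that were higher and 389 that were lower. A change of at least 4-fold was fitted for 19 and 20. Changes that were not called are left out of these counts, though some were of at least 4-fold at such levels. Counting also called transcripts that were low in one group, 1252 were at least 2-fold higher and 1325 at least 2-fold lower. At least 8-fold changes were fitted for 368 and 325, and only 2 and 1 of these had 5 CPM in both groups. Fitted folds of transcripts near 0 in one group depend on a small count that the fit adds.

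Calls were rarest among transcripts of low level. Of 19762 transcripts with a mean of 5 CPM or more over both groups, 17.0% were called, with 7.95% higher and 9.05% lower. Of 31016 transcripts under 1 CPM, 1.91% were called. Between 20 and 100 CPM 22.7% of 6927 were called. At 100 CPM or more, 315 of 1584 were called (19.9%), and few of these changes were large. There, 19 rose and 19 fell by at least 2-fold, while 65 of those that rose and 90 of those that fell changed by less than 1.5-fold. A change of a given size is easier to call at a higher count.

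**Figure D2:**
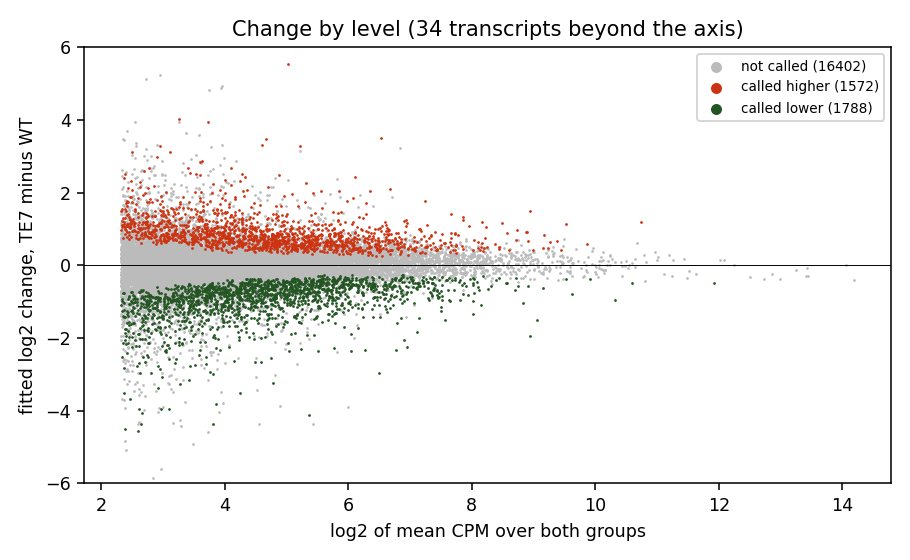
Fitted log2 change, TE7 minus WT, against log2 of the mean CPM over both groups for transcripts of 5 CPM or more, with those called higher (1572) and lower (1788) in colour. A further 34 transcripts lie beyond log2 changes of 6 in size. The spread of changes narrows toward high levels.

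Transcripts called higher held a larger share of the library in TE7. They took 5.57%, 5.38% and 5.38% of reads in WT replicates 1, 2 and 3, and 9.36%, 9.20% and 9.42% in TE7 replicates 1, 2 and 3. Those called lower took 9.48%, 11.0% and 11.5% in WT and 6.23%, 6.15% and 6.37% in TE7. The transcripts were chosen by this contrast, so these shares only describe how much of the mRNA the calls cover. WT replicate 1 was the WT library nearest to the TE7 mean for 66.2% of the transcripts called higher and 57.2% of those called lower.

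More long transcripts were lower than higher in TE7. Length classes are given by their limits, and a transcript at a limit belongs to the longer class. In the class of 8000 bases or more, 272 of 1043 transcripts with a mean of 5 CPM or more were called, and 243 of them were lower (23.3%, against 9.05% over all lengths) and 29 higher (2.78%, against 7.95%). In the class of 4000 to 8000 bases, 747 of 4789 were lower (15.6%) and 234 higher (4.89%). The transcripts of 1000 to 2000 bases went the other way, with 427 of 4234 higher (10.1%) and 181 lower (4.27%). Between 2000 and 4000 bases, 661 of 7047 were higher (9.38%, against 7.95%) and 492 lower (6.98%, against 9.05%).

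Beyond the calls, the fitted values of the longest class lay mostly below 0. The fitted log2 change was below 0 for 79.9% of the 1043 transcripts of 8000 bases or more, with a median of -0.42 and quartiles of -0.82 and -0.08. All 3 TE7 libraries lay below all 3 WT libraries for 52.6% of them, against 24.4% over all lengths, and above for 8.92%, against 27.9%. The 236 transcripts of 12000 bases or more had a median of -0.46, close to the -0.40 of the 807 between 8000 and 12000 bases. At 4000 to 8000 bases the median was -0.15, at 2000 to 4000 bases 0.09 and at 1000 to 2000 bases 0.21. It was 0.05 over all 19762.

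The change with length was seen in each TE7 library and in WT replicate 1, where it was smaller at 4000 bases or more. WT values are taken around their own mean, and WT replicate 3 went the other way. At 8000 bases or more, the median log2 CPM relative to the WT mean was -0.36, -0.42 and -0.39 in TE7 replicates 1, 2 and 3. In WT it was -0.15, 0.01 and 0.15 in replicates 1, 2 and 3, so every TE7 library lay below every WT library, and WT replicate 1 lay nearest. At 4000 to 8000 bases the TE7 libraries were at -0.12, -0.17 and -0.15, and WT at -0.03, -0.01 and 0.05, again without overlap.

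On the side of short transcripts the groups met. Under 500 bases WT replicate 1, at 0.23, lay above TE7 replicates 1, 2 and 3, at 0.22, 0.19 and 0.13. At 500 to 1000 bases TE7 was at 0.20, 0.22 and 0.18, and WT replicate 1, at 0.19, lay among them, apart from WT replicates 2 and 3 at -0.06 and -0.12. At 1000 to 2000 bases the lowest TE7 library was at 0.18 and WT replicate 1 at 0.17. Without WT replicate 1 the fitted medians of the short classes were larger, at 0.26 under 500 bases (0.14 with it), 0.30 at 500 to 1000 bases (0.18 with it), 0.31 at 1000 to 2000 bases and 0.16 at 2000 to 4000 bases. The median was -0.16 at 4000 to 8000 bases and -0.45 for the longest class. The latter was -0.33 without WT replicate 3, the smallest fall with 1 library left out.

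**Figure D3:**
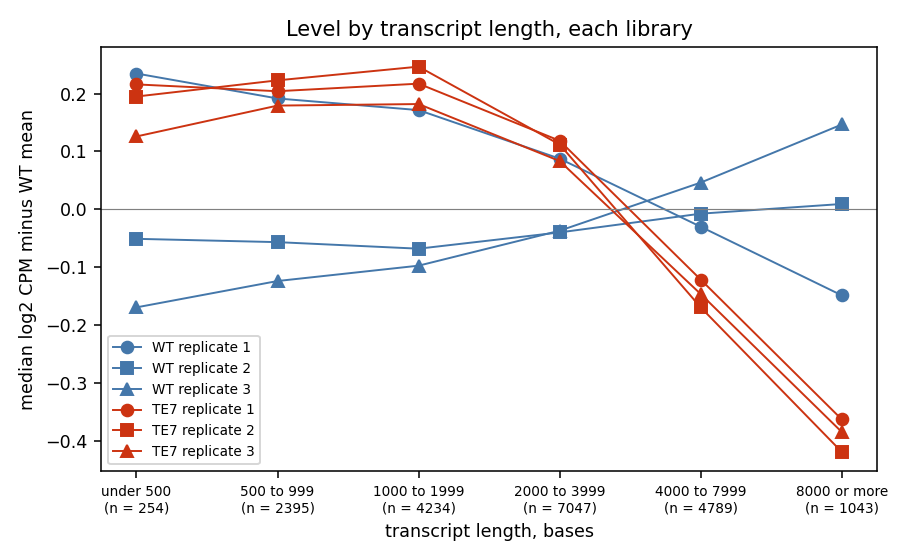
Median log2 CPM minus the mean of the WT libraries (vertical axis) for each library in 6 classes of transcript length, for transcripts with a mean of 5 CPM or more. Lines join the values of 1 library. The TE7 libraries lie at -0.36 to -0.42 at 8000 bases or more, below all WT libraries, while WT replicate 1 lies among or close to them below 4000 bases.

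Among transcripts of 5 CPM or more, those of 4000 bases or more were called lower more often, and higher less often, than all transcripts of the same level. At 100 CPM or more, 104 of 363 long transcripts fell (28.7%, against 10.8% over all of this level) and 19 rose (5.23%, against 9.09%). Shorter transcripts of this level gave 67 lower (5.49%) and 125 higher (10.2%) among 1221. Between 20 and 100 CPM, 22.3% of 2391 long transcripts fell (against 12.0%) and 6.48% rose (against 10.6%). Between 5 and 20 CPM, 11.4% of 3078 fell (against 6.97%) and 2.89% rose (against 6.14%). These differences in share were not tested. At lower levels few transcripts of any kind were called. Between 1 and 5 CPM, 3.92% of 2981 long transcripts fell (against 2.31%) and 1.85% rose (against 2.54%). Under 1 CPM, long transcripts were above the share of their level in both directions, with 1.79% lower (against 0.874%) and 1.22% higher (against 1.03%) among 2123. The median log2 change of long transcripts was -0.16 at 100 CPM or more, -0.18 at 20 to 100 CPM, -0.22 at 5 to 20 CPM and -0.30 at 1 to 5 CPM.

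**Figure D4:**
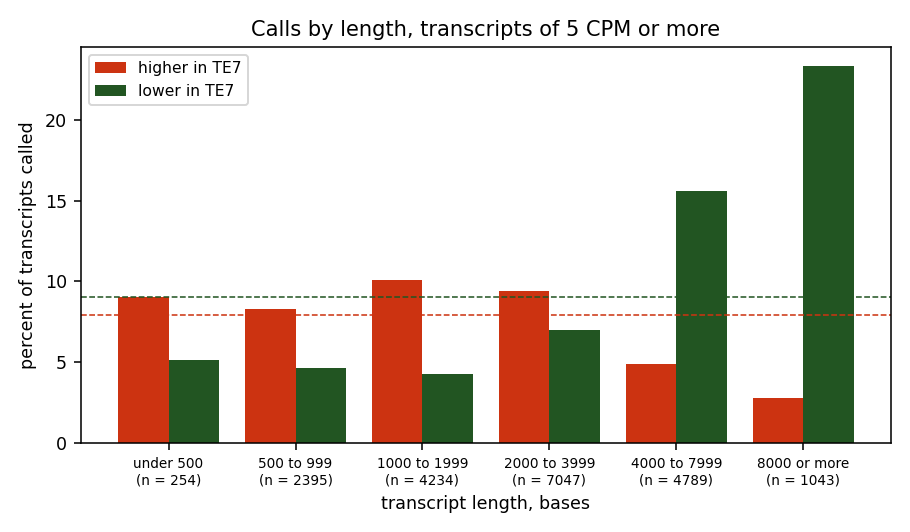
Percentage of transcripts called higher and lower in TE7 (bars, from 0) in 6 classes of transcript length, among transcripts with a mean of 5 CPM or more. Dashed lines mark the percentages over all lengths, 7.95% higher and 9.05% lower. Lower calls reach 23.3% at 8000 bases or more, where higher calls are at 2.78%.

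In the balance of directions, too, length divided the calls. Of all transcripts called, whatever their level, those of 4000 bases or more fell in 76.9% of cases, 1145 against 344 that rose. Of those under 4000 bases 40.0% were lower, 1365 against 2045. The former percentage stayed between 66.5% and 78.0% over edgeR fits with 1 library left out, another scaling or an effective length offset. The latter turned without TE7 replicate 1, 2 or 3, to 52.4%, 55.2% and 57.4%, and was 29.5%, 25.7% and 32.4% without WT replicate 1, 2 and 3, so an excess of higher calls among shorter transcripts did not hold. Among the transcripts of 5 CPM or more in both groups, the 100 largest falls had a median length of 5598 bases and the 100 largest rises one of 2253 bases. Of the falls 31 were of 8000 bases or more, and of the rises 5.

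Summed over whole libraries, the shift moved a modest part of the reads. Transcripts of 8000 bases or more took 3.56%, 3.39% and 3.63% of reads in TE7 replicates 1, 2 and 3, and 3.89%, 4.81% and 5.43% in WT. Transcripts of 2000 to 4000 bases took 30.6%, 30.0% and 30.3% in TE7 and 28.8%, 28.8% and 29.3% in WT. Those of 4000 to 8000 bases took 16.4%, 15.6% and 16.3% in TE7 and 16.5%, 18.3% and 19.4% in WT. In these classes the groups did not overlap, and the two-sided exact permutation p was 0.1 for each, the smallest that 3 against 3 libraries can give. The differences were -1.19, 1.32 and -1.97 percentage points. At 1000 to 2000 bases the groups overlapped, with a difference of 1.53 points and an exact permutation p of 0.3. Classes of 500 to 1000 bases and under 500 bases overlapped, with an exact permutation p of 0.8 for each. Over the 16 measures of whole libraries tested in this way, the smallest Benjamini-Hochberg adjusted value was 0.178.

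Per molecule, the shares of long transcripts were again lower in TE7 without overlap, while the mean transcript length overlapped. TPM, which scales reads per effective length, counts transcript molecules in proportion. For the class of 8000 bases or more the share of TPM was 0.433% ± 0.020 (SD, n = 3) in TE7 and 0.600% ± 0.115 (SD, n = 3) in WT, without overlap and with exact permutation p = 0.1. The mean transcript length weighted by TPM was 1331 ± 15.1 bases in TE7 against 1371 ± 46.9 bases in WT (SD, n = 3). Here WT replicate 1, at 1327 bases, lay between TE7 replicate 2, at 1313, and TE7 replicates 1 and 3, at 1339 and 1340, and the exact permutation p was 0.3. Weighted by reads, mean length was 2704, 2640 and 2703 bases in TE7 replicates 1, 2 and 3 and 2712, 2894 and 3022 in WT, so TE7 replicate 1 and WT replicate 1 lay close together, though the groups did not overlap. The number of transcripts at 1 TPM or more overlapped, at 38600 to 40036 in TE7 and 37130 to 42960 in WT, with exact permutation p = 0.6.

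The 10 most abundant transcripts took less of the TE7 libraries, while wider sets overlapped. The 10 most abundant of each library held 9.24%, 10.4% and 9.63% of reads in TE7 replicates 1, 2 and 3 and 12.4%, 11.5% and 10.5% in WT, with no overlap and exact permutation p = 0.1. For the 100 most abundant the groups overlapped, at 22.4% ± 0.76 in TE7 and 24.0% ± 1.48 in WT (SD, n = 3), with exact permutation p = 0.2. The 1000 most abundant held 45.7% ± 0.70 in TE7 and 46.3% ± 1.85 in WT (SD, n = 3), also with overlap (exact permutation p = 0.7). These shares bear on CPM, since a smaller share for a few transcripts raises all others. The scaling factors, which allow for this, were 0.983 to 1.01 in TE7 and 0.933 to 1.05 in WT.

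Library properties also moved with the group. The fragment length implied by the effective lengths of listed transcripts was 168, 168 and 169 bases in TE7 replicates 1, 2 and 3 and 160, 157 and 166 bases in WT, a difference of 7.33 bases with exact permutation p = 0.1. Its part in the length pattern was not tested. It is a median over listed transcripts, and the effective length of a single transcript with reads can differ from its length by another amount, as the 5518 bases of ENST00000359470.6_4 in WT replicate 1, with a length of 5501, show. The effective lengths themselves differed little. Their log2 ratio of TE7 to WT had a median of -0.06 under 500 bases and 0.02 at 8000 bases or more, and 98.4% of the 19762 transcripts lay within 1.1-fold. In a fit with effective length as an offset, the median log2 change at 8000 bases or more was -0.45, a slightly larger fall than the -0.42 without it.

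Among transcripts with at least 5 CPM in each group, those with the smallest adjusted p in each direction are described by library. This choice favours tight and separated groups. None of them had whole-number estimates in all 6 libraries, so some of their reads were divided with other transcripts. Their changes may include changes in that division. ENST00000359470.6_4, of 5501 bases, was at 70.6, 65.1 and 66.6 CPM in TE7 replicates 1, 2 and 3 and at 7.81, 6.77 and 6.21 CPM in WT. It was 9.73-fold higher in TE7 (log2 change 3.28 ± 0.11 SE, edgeR adjusted p = 0.00166). In estimated reads this was 4596 to 4953 in TE7 against 436 to 473 in WT. It is a long transcript that rose, against the direction of most transcripts of its length class.

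ENST00000648791.1_1, of 2110 bases, was at 131, 127 and 138 CPM in TE7 replicates 1, 2 and 3 and at 34.7, 30.2 and 31.5 CPM in WT. Every TE7 library lay more than 3-fold above every WT library, and the fitted rise was 4.11-fold (log2 change 2.04 ± 0.08 SE, edgeR adjusted p = 0.00235). In TPM, ENST00000648791.1_1 was at 75.6 ± 4.83 in TE7 against 18.6 ± 1.05 in WT (SD, n = 3).

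ENST00000244745.4_3, of 4869 bases, was at 21.6, 21.2 and 18.9 CPM in TE7 replicates 1, 2 and 3 and at 152, 165 and 164 CPM in WT. It was 7.78-fold lower in TE7 (log2 change -2.96 ± 0.08 SE, edgeR adjusted p = 0.00141). In estimated reads it had 9187 to 11518 in WT and 1406 to 1497 in TE7. In TPM it had 44.0 ± 5.63 in WT against 5.44 ± 0.239 in TE7 (SD, n = 3).

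ENST00000368149.3_3, of 4414 bases, was at 22.6, 21.7 and 20.5 CPM in TE7 replicates 1, 2 and 3 and at 110.4, 110.5 and 112 CPM in WT. The WT libraries agreed closely here, WT replicate 1 included. It was 5.13-fold lower in TE7 (log2 change -2.36 ± 0.06 SE, edgeR adjusted p = 0.00141). Its level in TPM was 42.6 ± 5.18 in WT against 7.50 ± 0.087 in TE7 (SD, n = 3), a wider spread in WT than in CPM. Its effective length was 3177, 3065 and 3024 bases in WT replicates 1, 2 and 3 and 3476, 3228 and 3130 bases in TE7.

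**Figure D5:**
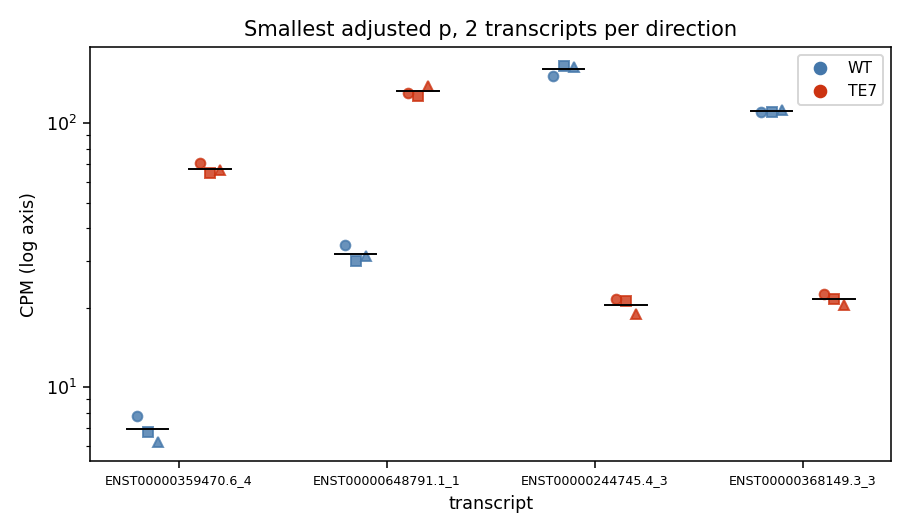
CPM on a log axis of the transcripts with the smallest adjusted p among those with at least 5 CPM in each group, 2 that rose and 2 that fell, in the WT and TE7 libraries. Circles, squares and triangles are replicates 1, 2 and 3 and bars are group means. In each transcript the groups lie at least 3-fold apart.

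Most transcripts share sequence with others, and the quantification divides such reads among them. Estimates that are whole numbers in all 6 libraries, to within 0.001, mark transcripts whose reads were not divided. There were 2556 of these among the tested transcripts, and 134 were called (5.24%, against 6.96% over all). Of the 2556, 86 were higher (3.36%, against 3.40% over all) and 48 lower (1.88%, against 3.57%). Of 285 with 4000 bases or more, 19 fell (6.67%, against 3.57% over all tested transcripts) and 11 rose (3.86%, against 3.40%). Of 2271 shorter ones, 29 fell (1.28%) and 75 rose (3.30%). The share of long ones that rose was thus not below that of the short ones, nor below the 3.40% over all tested transcripts. The median log2 change was -0.21 for the long and 0.13 for the short transcripts. With a mean of 5 CPM or more only 99 remained, of which 29 were long. Of those, 7 were lower (24.1%, against 9.05% over all transcripts of this level) and 2 higher (6.90%, against 7.95%). Their median was -0.24. TE7 lay wholly below WT for 14 of the 29 (48.3%, against 24.4% over all transcripts of this level) and wholly above for 4 (13.8%, against 27.9%).

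Some transcripts had reads in one group alone. With a mean of 5 CPM or more in one group and 0 reads in every library of the other, 60 transcripts were found in TE7 alone and 82 in WT alone. Of the 60, 36 had reads in all 3 TE7 libraries, and of the 82, 41 had reads in all 3 WT libraries. The test called these same 36 and 41, where 6.96% of all tested transcripts were called. The transcripts were chosen by this contrast, so their calls restate the choice and are no separate evidence. Against a floor of 3 reads per library, which covers counting error only, the means of the 36 were at least 112-fold to at least 707-fold higher in TE7. Those of the 41 were at least 119-fold to at least 740-fold lower. The remaining 24 and 41 also had 0 reads in at least 1 library of the group that held their reads, so for them the groups overlapped and no fold is given. Whole-number estimates were looked for only where at least 3 libraries had reads, so the check covers the 36 and the 41 called. It found 0 in either set, so all of these shared reads with other transcripts. For the remaining transcripts the check could not show whether reads were shared. A 0 here can come from how reads were assigned among related transcripts and gives no level for the gene.

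These transcripts were of similar length in both sets. The median length was 3078 bases for those in TE7 alone and 2747 bases for those in WT alone, and 22 of 60 and 30 of 82 had 4000 bases or more. Their median levels were 7.12 and 8.42 CPM, not far above the 5 CPM by which they were chosen. Summed, they amounted to 641 CPM in TE7 and 888 CPM in WT.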

How the data were processed

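Polyadenylated RNA was extracted with Trizol, and libraries came from a Tecan/Nugen kit, as the labels' protocols state. The submitters' processing notes name cutadapt 2.3, Salmon 1.3.0 and hg19. Which transcript set and which bias options Salmon used is not given in the sources used here. The authors deposited 1 table per library, with an estimated count of reads and a TPM value for each transcript. The estimated counts are not normalized, and TPM is scaled per effective length.

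Estimated counts of 3 TE7 and 3 WT libraries were rounded and filtered with the edgeR 4.0.16 default, which left 70340 transcripts with 99.3% to 99.7% of reads. Libraries were scaled with TMM factors and fitted with a quasi-likelihood model with group as its only term. Standard errors were taken as the log2 change over the square root of F. Measures of whole libraries went through an exact permutation test, two-sided, for which the smallest p is 0.1. The length classes have limits at 500, 1000, 2000, 4000 and 8000 bases. Fragment length is the median of length minus effective length plus 1 over transcripts of 2000 bases or more. Named transcripts had at least 5 CPM in each group, groups that did not overlap and the smallest adjusted p, 2 for each direction. The comparison, classes and lists were chosen with earlier results of these data known. The edgeR test was tried on simulated counts. These had less spread among replicates than the 6 libraries, so the trial does not give its error rate here. Alternatives included DESeq2 1.42.0, limma 3.58.1, other scalings and filters, a replicate block and leaving out each library. Gene-level tests were not run, since 0 identifiers matched a gene table. Reads were not matched to molecules, so bounds cover counting error only.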

Additional observations from a re-analysis of the deposited data

How the results depend on the processing

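The count of 4899 calls was 7378 with all 9 mRNA libraries in 1 fit, 16236 in DESeq2, 2445 without a filter, 8407 and 7633 with limma on log2(TPM + 1) and log2(TPM + 0.1), and 669 against a 1.5-fold change, fewer by construction. Leaving out 1 library gave 325 to 8200. In edgeR with the replicate number as a block it was 0, with 14494 at an unadjusted p under 0.05, and the 4 named transcripts had adjusted p = 0.0903. Deviations of same-numbered libraries correlated at 0.05, -0.01 and 0.06, and replicates 1 and 3, but not 2, correlated best with their own number. The named transcripts kept their direction and call in every other setting.

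The median log2 change at 4000 to 8000 bases was -0.20 when only transcripts with a mean of 5 CPM were fitted and -0.22 with limma and 0.1 added. At 8000 bases or more it was between -0.33 and -0.47 over all settings. The percentage of calls that were lower under 4000 bases ranged from 25.7% to 57.4% with 1 library left out. These length summaries under alternatives were chosen after the data were examined. The lower read share of transcripts of at least 4000 bases kept its sign in all 10 alternatives, as did the longer fragments in all 8. Calls with whole-number estimates were 220 in the fit of 9 libraries. Transcripts in TE7 alone numbered 241 at 2 CPM and 16 at 10 CPM, and those in WT alone 304 and 28. The causes were not tested.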
